A study of Mus musculus with 2 samples.

Results

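The GATA family of zinc finger transcription factors and their FOG cofactors were followed in open chromatin of the newborn mouse heart. The 8 genes are the 6 GATA genes Gata1 to Gata6 and the 2 FOG genes Zfpm1 (FOG1) and Zfpm2 (FOG2). They were chosen by name and located in GENCODE vM21, where they are 8 of 21911 protein-coding genes and of 55304 genes of any type with a symbol. The data are DNase-seq of whole heart tissue from mice of strain B6NCrl at postnatal day 0, in which DNase I cuts accessible DNA first and the cut ends are sequenced. There was 1 group of 2 libraries, biological replicates 1 and 2, with no second tissue, age, genotype or treatment to set it against. The labels give each library its own biosample but name the same donor for both, and record the sex as not collected, so the spread between the libraries may be technical.

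GATA factors bind short DNA motifs around the letters GATA through a pair of zinc fingers, and the first finger of the pair also binds a FOG protein. GATA1, GATA2 and GATA3 are best known from blood: GATA1 drives red cells and megakaryocytes, GATA2 blood stem cells and endothelium, and GATA3 T cells and sympathetic neurons. GATA4, GATA5 and GATA6 act in the heart and in endoderm, and GATA4 together with FOG2 is needed for the mouse heart to form. FOG1 is the partner of GATA1 in red cells and megakaryocytes, and also acts in heart development.

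Peaks are sites of 150 bp with 1 signal value each, as deposited by the authors. Values were whole numbers. In replicate 1 they reached 145, with a median of 36 over 164657 peaks on the 19 autosomes, X and Y, and in replicate 2 they reached 148, with a median of 35 over 144708 peaks. How the values were scaled and how many reads lie behind them is not given in the sources used here. Hotspots are wider stretches of enriched cutting with a −log10 q-value that stops at 100. Pairs of values below are those of replicate 1 and then replicate 2 unless named otherwise. All peaks have the same length, so values of different genes are given side by side without a correction for length, but how they compare between loci was not tested. A promoter peak has its centre within 500 bp of a transcription start site (TSS) of the gene. In whole tissue, fewer cells of a type with an open site and less cutting per cell cannot be told apart. Against 63.7% of all protein-coding genes, both libraries had a promoter peak at 8 of 8 cardiomyocyte markers, the defining cells of the labelled tissue, and at 6 of 6 endothelial and 5 of 5 fibroblast markers. The same held for 3 of 5 smooth muscle, 2 of 4 epicardial, 1 of 4 macrophage and 1 of 5 hepatocyte markers.

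Promoter peaks in both libraries were found at 6 of the 8 genes, Gata2, Gata4, Gata5, Gata6, Zfpm1 and Zfpm2, against 63.7% of all protein-coding genes, so the count lies near that of any gene. Gata3 had one in replicate 1 alone and Gata1 had none, which makes 7 of 8 in replicate 1 and 6 of 8 in replicate 2, against 66.1% and 65.2% of protein-coding genes. The highest promoter values belonged to Zfpm1 (118.0 ± 4.24), Gata6 (113.5 ± 7.78) and Gata4 (100.5 ± 12.0), followed by Zfpm2 (79.0 ± 0), Gata2 (72.0 ± 1.41) and Gata5 (35.5 ± 2.12; SD, n = 2 libraries throughout). The libraries of Zfpm1 overlapped those of Gata6, and those of Gata6 overlapped those of Gata4. Gata4, Zfpm2, Gata2 and Gata5 did not overlap each other. The median of the highest promoter peak over all genes that had one was 88 in replicate 1 and 84 in replicate 2, so that Zfpm1, Gata6 and Gata4 lay above it in both libraries and Zfpm2, Gata2 and Gata5 below it. With 1 group of 2 libraries no test between genes or conditions could be made, and the values are a description.

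**Figure D1:**
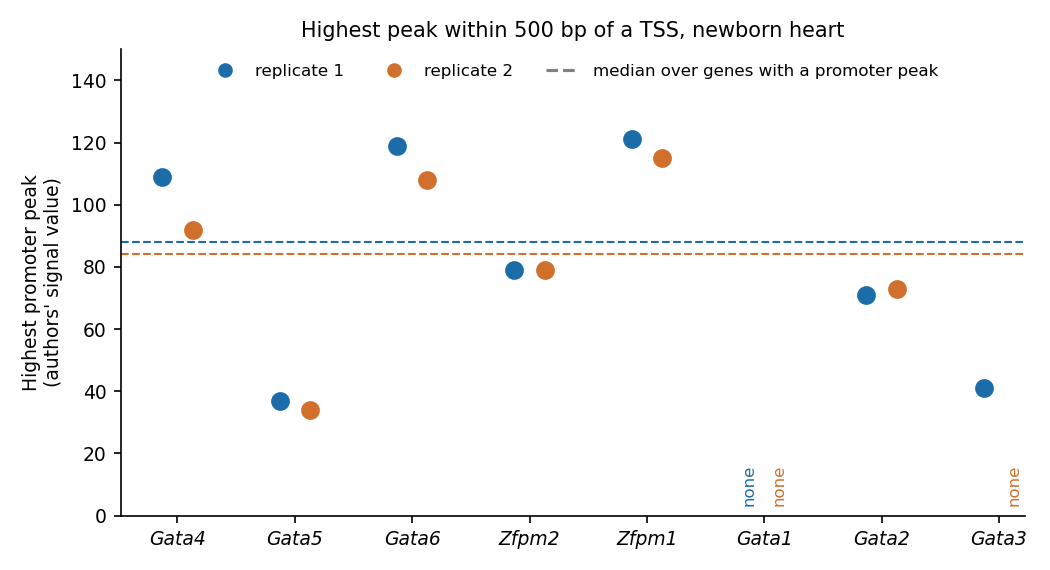
Highest peak value within 500 bp of a TSS for each gene (authors' signal value, no unit; points are the libraries, dashed lines the median over all protein-coding genes with a promoter peak, 88 and 84). Zfpm1, Gata6 and Gata4 lie above the lines, Zfpm2, Gata2 and Gata5 below, Gata3 has a point in replicate 1 alone, and Gata1 has none.

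A hotspot covered a TSS in both libraries at 4 of the 8 genes, Gata4, Gata6, Zfpm1 and Zfpm2, against 59.1% of protein-coding genes. At Gata3 this was so in replicate 1 alone (132 bp wide, −log10 q of 1.83) and at Gata5 in replicate 2 alone (165 bp, −log10 q of 1.93). Taken singly, each library had 5 of 8, against 61.2% of protein-coding genes in replicate 1 and 60.8% in replicate 2. At Gata4, Gata6, Zfpm1 and Zfpm2 the hotspot over the TSS of the transcript numbered 201 had the highest −log10 q of 100 in both libraries. This ceiling was shared by 34.3% of all hotspots in replicate 1 and 31.7% in replicate 2. Counting hotspots within 500 bp of a TSS in place of over it gave 7 of 8, all but Gata1. A peak inside the gene and more than 1 kb from every TSS of any gene was present in both libraries at 6 of 8, all but Gata1 and Gata5, against 46.2% of protein-coding genes. With the Gata1 peak of replicate 1 the count was 7 of 8 in that library and 6 of 8 in replicate 2, against 51.4% and 49.0%. Whether 8 genes differ from these shares was not tested.

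Gata4, which encodes the GATA factor best known from heart muscle, had open chromatin at 2 of its 3 start regions and in many places between them. The gene lies on the minus strand of chromosome 14 (chr14:63198922-63271692 in mm10). At the TSS pair 63245248 and 63245271, from which the coding transcripts Gata4-202 and Gata4-201 start, a peak at chr14:63245296-63245445 had 109 in replicate 1 and 92 in replicate 2. At the first TSS, 63271692 (Gata4-204), the peak values were 82 and 81. At the coding TSS 63271124 (Gata4-205 and Gata4-206), 568 bp downstream of the first, the libraries disagreed. Replicate 1 had no promoter peak and no hotspot there. Replicate 2 had 3 peaks, the highest being that of 81 at the first TSS, and a hotspot 1844 bp wide. No promoter peak was found at TSS 63213607 (Gata4-203) in either library. The TSS pair and the first TSS were also under hotspots in both libraries, and TSS 63213607 was not in either.

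By the mean of both libraries, the highest peak in Gata4 lay in the intron between these start regions, not at a promoter. This peak at chr14:63247856-63248005, 2659 bp upstream of TSS 63245271, had 109 in replicate 1 and 112 in replicate 2. Next inside the gene came a peak with 84 at chr14:63255996-63256145 in replicate 1 and 81 at a start 20 bp lower in replicate 2. A peak in intron 2 of Gata4-201 had 83 and 77. Upstream, the highest peaks shared by the libraries had 105 and 91 at 66998 bp and 89 and 99 at 97298 bp from the first TSS. The promoters of the neighbours Fdft1 (109 and 108), Ctsb (94 and 93) and Neil2 (51 and 46) also fell within 100 kb.

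The libraries differed over the part of the same Gata4 intron nearer the first TSS. Between chr14:63260776 and 63268225, replicate 2 had 17 peaks that followed each other within 1000 bp, against 2 peaks in replicate 1. Their values ran from 21 to 76 with a median of 32, and the 2 that overlapped a peak of replicate 1 had 76 and 67 in replicate 2. The other 15 had a median of 31, with 1 of them at 69. Between this run and the first TSS, replicate 2 had 4 more peaks without a partner in replicate 1, with 33, 40, 43 and 39. Those of 43 and 39 were promoter peaks of TSS 63271124. Hotspots covered 5697 bp of the run in replicate 2 and 394 bp in replicate 1, and none of the run's peak centres lay in an exon. Over the whole gene, which includes the run, hotspots covered 15635 bp (21.5%) in replicate 2 and 6339 bp (8.71%) in replicate 1. What set the libraries apart there was not tested.

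Gata5, a GATA factor of the early heart and endocardium, had the weakest promoter of the 6 with a peak in both libraries. Its single annotated TSS, 180334699 on the minus strand of chromosome 2, carried 37 in replicate 1 and 34 in replicate 2. Of the genes with a promoter peak, 9.51% in replicate 1 and 9.10% in replicate 2 had a lower one. No other peak lay in the gene (chr2:180325133-180334699). The promoter sequence is shown because it is the gene's only peak; it is that of the replicate 1 peak, given 5′ to 3′ on the gene's strand (chr2:180334696-180334845, minus strand of GRCm38.p6), with each GGGCGG (on either strand) in capitals, the GC box bound by SP and KLF factors:
Gata5 promoter: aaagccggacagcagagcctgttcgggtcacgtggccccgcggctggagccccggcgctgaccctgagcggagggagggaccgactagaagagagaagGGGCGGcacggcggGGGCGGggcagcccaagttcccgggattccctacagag
Its GC content was 70.7% and it held 2 GC boxes and no GATA hexamer, which is GATA with A or T before it and A or G after it, on either strand.

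The window of 100 kb on either side of Gata5 held far more peaks than the gene itself, 34 in replicate 1 and 50 in replicate 2. A stretch of 15090 bp that starts 50.3 kb upstream (chr2:180384976-180400065) holds the surplus of replicate 2, with 8 peaks in replicate 1 and 30 in replicate 2. It holds the muscle microRNA genes Mir1a-1 and Mir133a-2 and the 5′ end of the noncoding gene B230312C02Rik. Replicate 1 had a median value of 61.5 there, and replicate 2 one of 31. Outside it the window held 26 peaks in replicate 1 and 20 in replicate 2. As in the Gata4 intron, replicate 2 had close runs of peaks there, 15 and 10 peaks long. The highest window peaks were promoters of the neighbours Rps21 (124 and 113) and Cables2 (118 and 109).

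Gata6, which acts beside Gata4 in heart and endoderm, had a promoter made of several peaks. The gene lies on the plus strand of chromosome 18 (chr18:11052064-11085635). There were 4 promoter peaks in each library, over 4 of its 6 annotated TSSs. The highest had 119 in replicate 1 and 108 in replicate 2 and lay within 40 bp of TSS 11052470 (Gata6-201), the main coding transcript. A second of nearly the same height, 115 and 100, lay near the coding TSS 11053044 (Gata6-206). The peaks at the first TSS had 78 and 70, with 56 and 57 just upstream. The TSSs 11055038 and 11059047, both of transcripts with a retained intron, had no promoter peak. The noncoding gene 1010001N08Rik also starts here, and 3 of the 4 promoter peaks, all but that of 115 and 100, lie within 500 bp of its TSSs and cannot be assigned to Gata6 alone.

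No protein-coding neighbour lay within 100 kb of Gata6, yet the highest peak of its window was not at a promoter. It lay 93066 bp downstream of the first TSS, beyond the end of the gene, with 126 in replicate 1 and 113 in replicate 2. Further peaks downstream had 102 and 90 at 44846 bp and 79 and 75 at 48946 bp. Inside the gene, 2 peaks in intron 6 of Gata6-201 were shared, with 73 and 53 and with 61 and 57. The peaks outside the gene are placed by distance alone, and which gene they act on was not tested.

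Zfpm2 encodes FOG2, the FOG protein of heart muscle, and is by far the longest of the 8 genes at 449558 bp (chr15:40655035-41104592, plus strand). The first TSS, 40655035 (Zfpm2-201), had 79 in both libraries, under hotspots 1291 bp wide in replicate 1 and 1032 bp wide in replicate 2. A further promoter peak upstream had 66 and 51. The promoter was thus of middling height, above 39% of the genes with a promoter peak in replicate 1 and 43% in replicate 2. The inner coding TSS 40664990 (Zfpm2-203) had no promoter peak, but the highest peak inside the gene lay 1020 bp from it, with 79 and 62.

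Peaks were spread along the whole of Zfpm2 at low density. Outside the promoter the gene held 35 intron peaks in replicate 1 and 24 in replicate 2, and 1 exon peak in each. Intron 1 of Zfpm2-201 held 12 of these peaks in replicate 1 and 8 in replicate 2, and intron 5 held 15 and 9. Every one of the 8 peaks of replicate 2 in intron 1, and of the 9 in intron 5, overlapped a peak of replicate 1. The weakest were in intron 4, with 9, 13 and 40 in replicate 1 and 8, 8 and 22 in replicate 2. Per 100 kb of window, Zfpm2 had 7.08 peaks in replicate 1 and 5.85 in replicate 2. Among the 8 genes Gata4 had the most (27.1 and 28.6) and Gata3 the fewest (6.44 and 4.29), so low density was not particular to Zfpm2. No other protein-coding gene lies within 100 kb of Zfpm2.

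**Figure D2:**
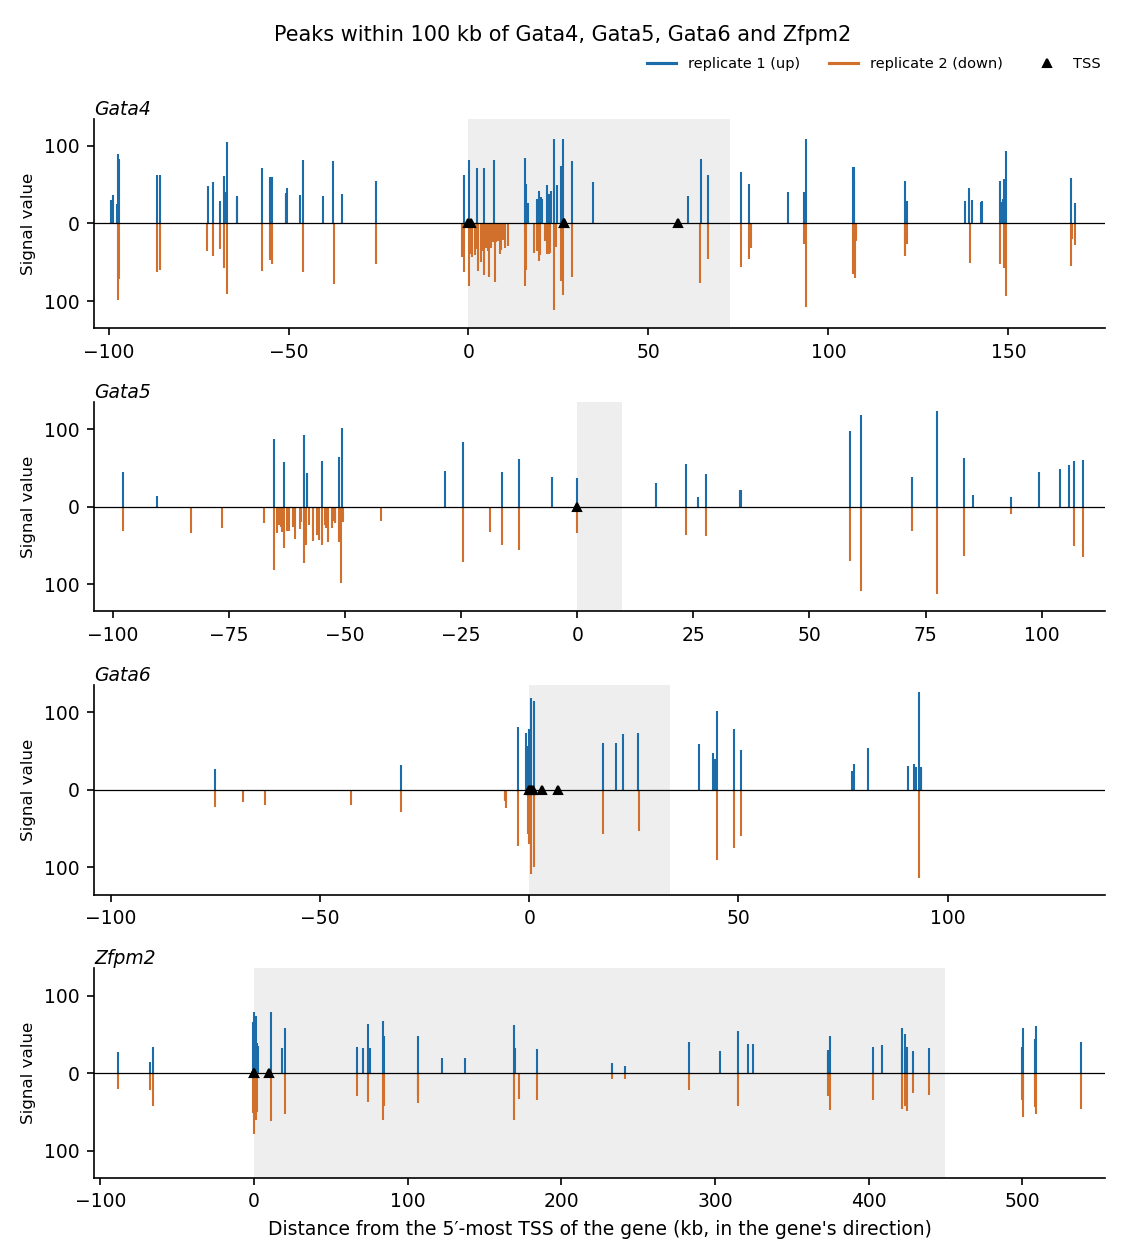
Peaks within 100 kb of Gata4, Gata5, Gata6 and Zfpm2, by distance from the gene's first TSS in kb; line length is the authors' signal value, replicate 1 upward and replicate 2 downward, grey is the gene and triangles are annotated TSSs. Replicate 2 shows dense low runs inside Gata4 and upstream of Gata5 (30 peaks against 8 in replicate 1), and the highest line of Gata6 stands 93066 bp downstream (126 and 113).

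Zfpm1 encodes FOG1, and its promoter was the strongest of the 8. At the first TSS, 122282141 on the plus strand of chromosome 8 (Zfpm1-201), the peak had 121 in replicate 1 and 115 in replicate 2, above 93.4% and 92.2% of the genes with a promoter peak. A second peak 631 bp upstream in replicate 1, and overlapped in replicate 2, had 101 and 100. Both lay under a single hotspot, 1074 bp wide in replicate 1 and 1197 bp wide in replicate 2. The short noncoding transcripts Zfpm1-204 and Zfpm1-202 near the end of the gene had a promoter peak of 59 and 60, and those that start at 122307320 and 122334631 had none. Inside the gene, the highest shared peaks away from the promoter had 79 and 68, 76 and 58, and 69 and 59, all in intron 1 of Zfpm1-201. The promoter peak of the neighbour Zc3h18, 94389 bp downstream of the first TSS, had 108 and 117. In replicate 2 it was the highest peak of the window.

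The promoter peak and 1 intron peak of Zfpm1 are shown because they held different motifs, GC boxes at the promoter and GATA hexamers in the intron. They are given 5′ to 3′ on the plus strand of GRCm38.p6, chr8:122281876-122282025 for the promoter and chr8:122300036-122300185 for the intron. Capitals mark GGGCGG and the GATA hexamers, each on either strand:
Zfpm1 promoter: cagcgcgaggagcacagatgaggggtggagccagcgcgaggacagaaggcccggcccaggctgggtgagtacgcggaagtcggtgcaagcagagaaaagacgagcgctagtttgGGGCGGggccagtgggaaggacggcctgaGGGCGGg
Zfpm1 intron: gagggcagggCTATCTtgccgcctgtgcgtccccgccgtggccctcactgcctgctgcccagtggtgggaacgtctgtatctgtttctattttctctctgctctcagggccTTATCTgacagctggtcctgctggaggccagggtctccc
The promoter peak held 2 GC boxes and no GATA hexamer. The intron peak, at the same position in both libraries, held 2 GATA hexamers and no GC box. The intron peak had 76 in replicate 1 and 58 in replicate 2. Other peaks of intron 1 differed: in replicate 1, that of 79 held no GATA hexamer and that of 69 held 1.

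Gata1, the red cell and megakaryocyte factor, was the single member without a promoter peak in either library, at any of its 3 coding TSSs (7964166, 7967910 and 7978071 on the minus strand of chromosome X). Its only peak was weak and in replicate 1 alone: 23, at chrX:7969876-7970025, 2040 bp upstream of TSS 7967910 and in an intron of Gata1-202. It is shown on the minus strand of GRCm38.p6 with its GATA hexamer in capitals:
Gata1 intron: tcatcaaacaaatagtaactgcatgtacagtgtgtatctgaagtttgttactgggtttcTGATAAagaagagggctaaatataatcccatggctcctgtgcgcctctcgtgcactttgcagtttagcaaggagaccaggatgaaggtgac
The window around Gata1 was not closed, for 22 peaks in replicate 1 and 16 in replicate 2 lay within 100 kb. Of these, 13 and 11 lay within 500 bp of a TSS of another gene. The promoter of the downstream neighbour Hdac6 had 99 and 87. Those of Suv39h1 (99 and 89), Slc35a2 (98 and 96) and the pair Pqbp1 and Timm17b (90 and 84) were of like height. Pim2 had 70 and 60, and Pcsk1n had 8 in replicate 1 alone. The neighbours Eras, Glod5, Otud5, Gm10490 and Gm10491 had no promoter peak. Gata1 has few CpG at its TSSs and fell in group 3 of 10 equal groups of genes by CpG content, in which 25.6% carried promoter peaks in both libraries. The other 7 genes fell in groups 6 to 10, in which 89.3% to 96.9% had one, and of these Gata3 alone lacked it. The groups use the most CpG-rich TSS of a gene, which at Gata2 and Gata6 had no promoter peak. That TSS of Gata1 had an observed over expected CpG of 0.306. The first TSS of Gata4 had 0.174, with peaks of 82 and 81. Whether CpG content goes with the missing peak at Gata1 was not tested.

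Markers of the cells that use GATA1 are read against the 63.7% of all protein-coding genes with a promoter peak in both libraries. Over the 10 CpG groups that share ran from 2.83% to 96.9%. The CpG content of the genes was not considered here or for any other marker, partner or target list. Of 6 erythroid markers 1 had one. The globin genes Hba-a1 and Hbb-bs, the transcription factor Klf1 and the haem enzyme Alas2 had none. How reads of the near-identical globin copies were handled is not given in the sources used here. Of 5 megakaryocyte markers 2 had one in both libraries, the integrin Itga2b (119 and 103) and the chemokine Pf4 (49 and 51). The wider list of GATA1 partners and targets, with 10 of 17 (58.8%), lay near the share of all genes.

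Gata2, the stem cell and endothelial factor, was open at 1 of its 4 TSSs. The gene lies on the plus strand of chromosome 6 (chr6:88193891-88207032). A peak 316 bp downstream of TSS 88198334 (Gata2-201 and Gata2-203) had 71 in replicate 1 and 73 in replicate 2, at the same position in both. The upstream coding TSS 88193891 (Gata2-202) and the 2 TSSs of transcripts with a retained intron had none. No hotspot covered a Gata2 TSS in either library.

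More than 500 bp from its TSSs, Gata2 had shared peaks 4121 bp upstream of the first TSS (63 and 61), and at 9199 bp (61 and 53) and 9599 bp (52 and 45) downstream of it, the last pair in intron 4 of Gata2-201. The upstream peak overlaps the gene Gm38708 and lies 911 bp from an annotated TSS. The peak at 9599 bp in this intron lies 955 bp from TSS 88204445 (Gata2-204). Enhancers upstream of the gene and in this intron are known from mouse blood and endothelium, the intronic one built of an E-box, the site of TAL1, followed by a GATA site. Both regions are therefore shown, 5′ to 3′ on the plus strand of GRCm38.p6, chr6:88189696-88189845 upstream and chr6:88203016-88203205 in the intron, where the peaks of both libraries were joined. Capitals mark GATA hexamers on either strand and, in the intron, the E-box CANNTG that precedes one:
Gata2 upstream: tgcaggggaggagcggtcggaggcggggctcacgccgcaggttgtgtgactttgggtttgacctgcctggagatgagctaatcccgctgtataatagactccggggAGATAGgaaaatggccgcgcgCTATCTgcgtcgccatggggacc
Gata2 intron: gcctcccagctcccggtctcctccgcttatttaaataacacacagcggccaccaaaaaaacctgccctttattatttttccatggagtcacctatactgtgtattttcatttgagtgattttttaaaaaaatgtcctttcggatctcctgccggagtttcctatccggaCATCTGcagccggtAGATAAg
The upstream peak held 2 GATA hexamers. In the intron, the E-box and GATA site together took 20 bases, with 9 bases between CANNTG and GATAA. They lay wholly inside the peak of replicate 2 and the hotspots of both libraries, and outside the peak of replicate 1, which ends 40 bp earlier. An E-box followed by GATAA after 6 to 9 bases was found in 0.451% of all peaks of replicate 1 and 0.454% of replicate 2.

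The highest shared peak near Gata2 was 87701 bp upstream of the first TSS, with 93 in replicate 1 and 97 in replicate 2. Further peaks upstream had 67 and 80 at 69761 bp and 67 and 68 at 53421 bp. All 3 were at least as high as the intron peaks. Replicate 1 had 36 peaks in the window and replicate 2 had 23, of which 21 in each overlapped a peak of the other library.

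Gata3, the T cell and sympathetic factor, had its highest peak between its start regions. The main coding TSS, 9878600 on the minus strand of chromosome 2 (Gata3-201), had a promoter peak of 41 in replicate 1 and none in replicate 2. A peak at chr2:9879636-9879785, 1110 bp upstream of that TSS and in intron 1 of Gata3-202, had 93 and 95. It lies outside a TSS window of 1000 bp too. The first coding TSS, 9890034 (Gata3-202), starts within 500 bp of the neighbour 9230102O04Rik, and the nearest peak there, 624 bp away in replicate 1 and 604 bp away in replicate 2, had 59 and 52. That peak is a promoter peak of 9230102O04Rik, and with a TSS window of 1000 bp it counts for Gata3 as well, which makes 7 of 8 genes with a promoter peak in both libraries. The 3 TSSs of the short processed transcripts Gata3-204, Gata3-205 and Gata3-206 had no promoter peak.

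The intron peak of Gata3 is shown because it is the highest of the gene; it is given on the minus strand of GRCm38.p6 with each GGGCGG, on either strand, in capitals:
Gata3 intron: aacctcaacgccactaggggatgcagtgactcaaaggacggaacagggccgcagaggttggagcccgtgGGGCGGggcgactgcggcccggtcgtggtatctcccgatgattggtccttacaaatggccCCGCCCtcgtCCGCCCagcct
It held 3 GC boxes and no GATA hexamer, with a GC content of 65.3%. Upstream of the gene, shared peaks of 75 and 71 and of 76 and 66 lay 79936 bp and 80376 bp from the first TSS, side by side. Gata3 had the fewest peaks within 100 kb of the 8 genes, 15 in replicate 1 and 10 in replicate 2. Of 5 T cell markers 1 had a promoter peak in both libraries, the kinase Lck (79 and 61), and of 4 sympathetic neuron markers none had, against 63.7% of all protein-coding genes.

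**Figure D3:**
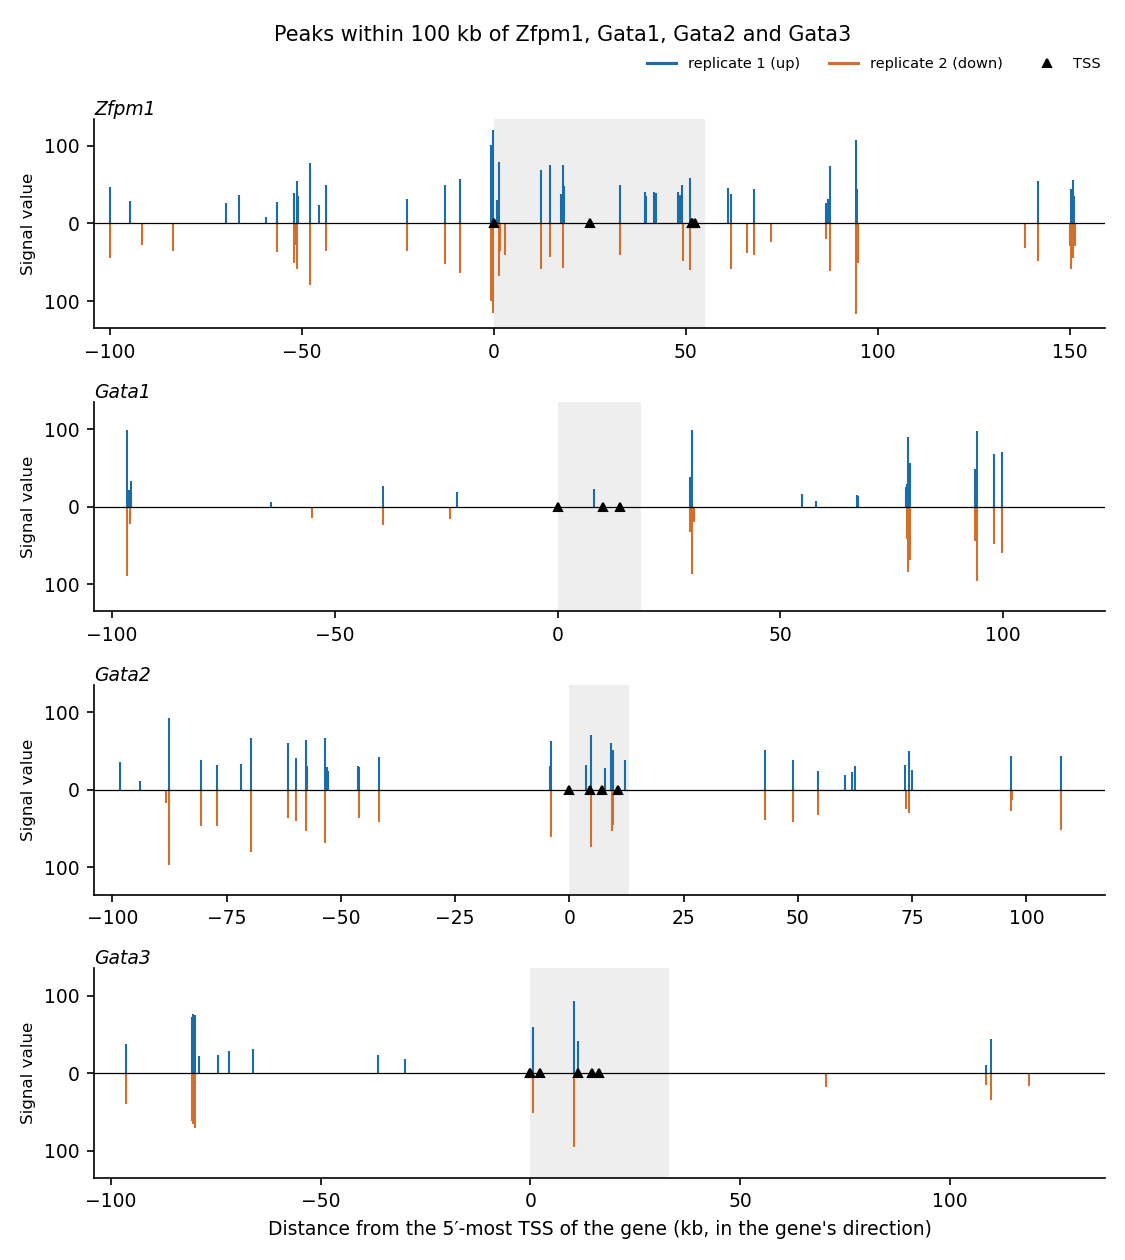
Peaks within 100 kb of Zfpm1, Gata1, Gata2 and Gata3, by distance from the first TSS in kb; line length is the authors' signal value, replicate 1 upward and replicate 2 downward, grey is the gene and triangles are TSSs. Zfpm1 has tall lines at the start of the gene (121 and 115) and at the promoter of the neighbour Zc3h18 (108 and 117). Gata1 has 1 short line inside the gene in replicate 1 (23), and the tallest line of Gata3 (93 and 95) stands between TSSs.

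Across the 8 loci, Gata4 had the most peaks, 74 within 100 kb in replicate 1 and 78 in replicate 2, more than 99.4% and 99.8% of protein-coding genes. Its mean over the libraries was 76, and 67.5 without the run of 17 peaks in replicate 2. Zfpm1 and Zfpm2 each had 46 in replicate 1 and 38 in replicate 2, more than 89.2% and 84.9% of genes. The median gene had 25 in replicate 1 and 22 in replicate 2. Gata1 and Gata3 lay below it in both libraries, and Gata6 in replicate 2, with 27 in replicate 1 and 19 in replicate 2. A window grows with the length of its gene, so that Zfpm2 covers the longest. In all, the windows held 300 peaks in replicate 1 and 272 in replicate 2. Of these, 13 and 15 were promoter peaks of the 8 genes, 85 and 76 lay elsewhere in the genes, and 202 and 181 in the flanks, where 34 and 36 were within 500 bp of a TSS of another gene.

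**Figure D4:**
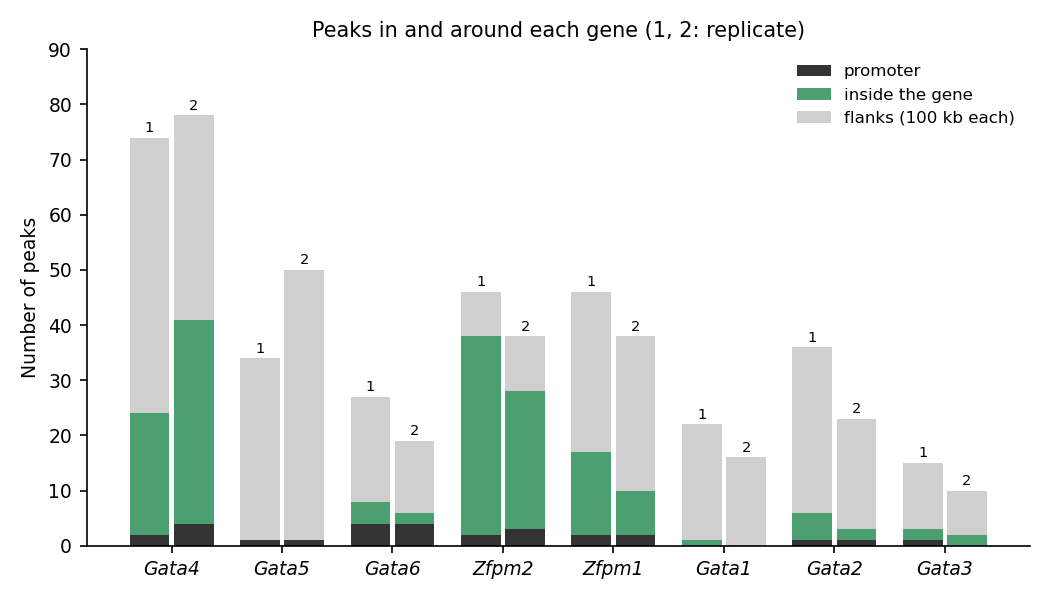
Number of peaks by place for each gene (bars marked 1 and 2 are the replicates; black promoter peaks, green other peaks inside the gene, grey peaks in the 100 kb flanks). Gata4 has the tallest bars (74 and 78), replicate 2 exceeds replicate 1 at Gata4 and Gata5 alone, and green dominates in Zfpm2.

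Replicate 1 had more peaks than replicate 2 at 6 of the 8 loci, and fewer at Gata4 and Gata5, which hold the runs described above. Of the peaks of the windows, 62.3% in replicate 1 and 67.3% in replicate 2 overlapped a peak of the other library, against 70.1% and 79.8% of all peaks. Peaks with a partner had a median value of 57 in replicate 1 and 52 in replicate 2, and those without one had 32 and 29. Over 187 shared peaks, the median difference of replicate 2 minus replicate 1 was −4, and 66.8% were higher in replicate 1. The same difference was −4 over all 115466 shared peaks of the genome, with 68% higher in replicate 1. The offset at these loci was that of the libraries as a whole.

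**Figure D5:**
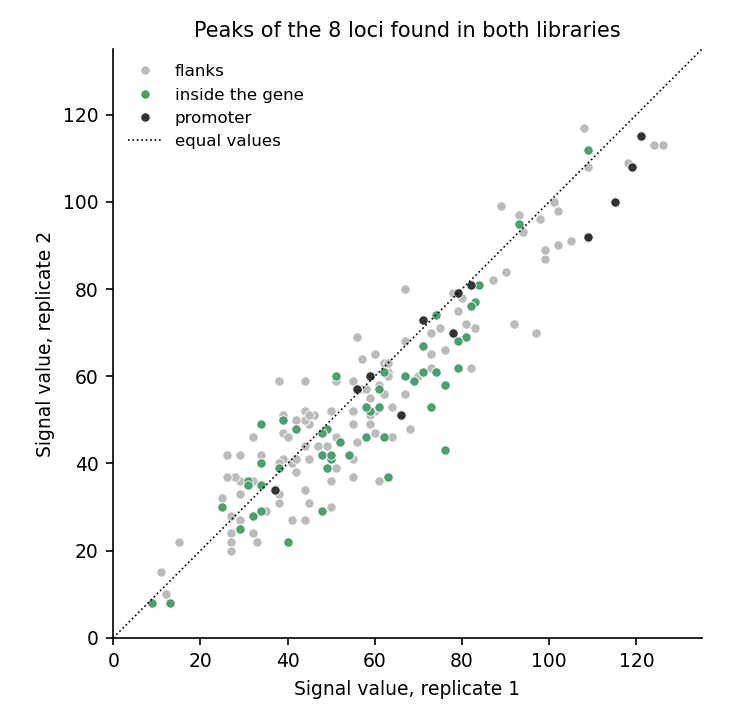
Authors' signal value of each of the 187 peaks of the 8 loci that overlap between libraries, replicate 1 on the horizontal and replicate 2 on the vertical axis, by place; the dotted line marks equal values. Most points (66.8%) are higher in replicate 1 and lie just under the line, and the highest promoter peak stands at 121 and 115.

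GATA factors are known to bind their own genes, and the peaks were searched for the 4 GATA hexamers given above on both strands. Among promoter peaks and other peaks inside the 8 genes, 25 of 98 (25.5%) in replicate 1 and 20 of 91 (22%) in replicate 2 held one, against 21.9% and 21.0% of all peaks of the libraries. Over the whole windows the shares were 22.3% and 18.8%. These shares lie near those of any peak. By gene, 12.5% and 12.2% of peaks in Gata4 held a hexamer, 28.9% and 28.6% in Zfpm2, and 35.3% and 50% in Zfpm1, the last from 17 peaks in replicate 1 and 10 in replicate 2. Over the window of Zfpm1 the shares were 19.6% and 15.8%, below those of all peaks. The libraries disagreed at Gata6, with 37.5% of 8 peaks in replicate 1 and 16.7% of 6 in replicate 2, and at Gata2, with 0% of 6 and 33.3% of 3. Median GC content of these peaks was 55.3% and 50% at Gata4, 47% in both libraries at Zfpm2 and 60% in both at Zfpm1. GGGCGG was in 16.3% of peaks at the 8 genes in replicate 1 and 14.3% in replicate 2, against 12.1% of all peaks of replicate 1 and 13.3% of replicate 2, and 37.9% and 38.8% of all promoter peaks. A match of letters is not a bound site.

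The partners and targets of the family were open at their promoters to different degrees, list by list. Whether the CpG content of their promoters goes with these differences was not tested. Promoter peaks in both libraries were found at 51 of 80 genes of 6 lists together, again near the 63.7% of all protein-coding genes, but from 15 of 15 in the cardiac GATA4 targets to 1 of 9 in the endoderm targets. Among the 15 cardiac targets the highest were the cell cycle kinase Cdk4 (111 and 115), cardiac troponin I Tnni3 (114 and 110) and cardiac troponin T Tnnt2 (115 and 102). The natriuretic peptide genes Nppa (63 and 53) and Nppb (93 and 93), classic GATA4 targets, were among them too. The median of their mean values was 93.

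Of 14 cardiac partners of GATA factors, 12 carried promoter peaks in both libraries, against 63.7% of all protein-coding genes. The median of the mean values of these 12 was 103.75. The highest were Srf, the serum response factor (120 and 121), Jarid2, a cofactor of the Polycomb complex (116 and 110), and Hand2, a transcription factor of the right ventricle (120 and 103). Nkx2-5, the cardiac homeobox factor that binds GATA4, had 98 and 104. Tbx5, a T-box factor and GATA4 partner, had 66 in replicate 1 and no promoter peak in replicate 2, and Nr2f2, a nuclear receptor of the atria, had none.

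Among 17 partners and targets of GATA1 in red cells and megakaryocytes, 10 (58.8%) carried promoter peaks in both libraries. This lay near the 63.7% of all protein-coding genes. Itga2b (119 and 103), the adaptor Ldb1 (113 and 103) and Nfe2 (94 and 75), a factor of red cells and megakaryocytes, were highest. Among the 7 without one were Klf1, Alas2, Hba-a1, Hbb-bs and Hbb-bt, and the platelet gene Gp1ba, which had 33 in replicate 1 alone. Genes shared with other blood or endothelial cells, such as Tal1 (41 and 54), Lmo2 (56 and 52) and Lyl1 (67 and 60), were among the 10.

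Of 13 endothelial and progenitor partners and targets of GATA2, 12 carried promoter peaks in both libraries, against 63.7% of all protein-coding genes. The highest were Runx1 (105 and 91), a factor of blood stem cells, Prox1 (81 and 83), a lymphatic factor that heart muscle also uses, and von Willebrand factor Vwf (85 and 75). The endothelial nitric oxide synthase Nos3 had 60 in replicate 1 alone. Of 13 T cell and sympathetic targets of GATA3, 2 had one in both libraries, Hand2, which is also a cardiac partner, and the T cell factor Tcf7 (53 and 64). Of 9 endoderm targets of GATA4 and GATA6, 1 had one in both libraries, again against 63.7%: Dab2, an endocytic adaptor (84 and 77). Alb, Afp, Ttr, Apoa1, Hnf4a and Foxa2 had none, and Sox17, which endothelium also uses, had 30 in replicate 1 alone.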

How the data were processed

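DNase-seq peak and hotspot lists of both libraries were used as deposited. Per the text files the authors deposited, regions were called for each replicate from its own filtered alignments to mm10; the sources used here do not give the aligner, the caller, its thresholds or the read depth. The authors deposited 1 signal value per peak, with no stated normalization. The deposited hotspot lists give a −log10 of the q-value, which stops at 100, and a score that was not analysed here. Peaks off chromosomes 1 to 19, X and Y were left out (190 and 159 peaks). A site listed without a peak is one below the unknown threshold, not one without cutting.

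Gene models and TSSs were those of GENCODE vM21, and sequences those of GRCm38.p6 from RefSeq, whose chromosome lengths were checked against the files. Peaks were placed by their centres, and shared peaks overlap by at least 1 bp. CpG groups are 10 equal groups of protein-coding genes by the observed over expected CpG of their most CpG-rich TSS. Python 3.11.15, numpy 2.4.6, pandas 2.3.3, pysam 0.24.0 and matplotlib 3.10.9 were used, and pairing, windows, runs and motif search were tested on simulated peaks. No test was made, since there is 1 group of 2 libraries. All 8 members were named. Peaks described singly were mostly the highest at a TSS, among the 3 highest shared peaks away from TSSs, or in a run of 10 or more. Not every such peak was described, and some others were added, such as the upstream Gata2 peak whose sequence is shown. The peaks whose sequence is shown were picked from the peaks after their values were seen. Of each list, the highest 3 genes and the smaller of the sets with and without a promoter peak were named, with further examples chosen after their values were seen. Some genes of the lists are counted but not reported here by name. The members and lists were chosen with earlier results of these data known.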

Additional observations from a re-analysis of the deposited data

How the results depend on the processing

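The count of members with a promoter peak in both libraries, 6, moved between 5 and 7 with TSS windows of 250 and 1000 bp, coding transcripts alone, the stronger 50% of peaks, an overlap of 75 bp, or 1 library alone. The hotspot count of 4 was 7 with hotspots within 500 bp of a TSS, and 5 with either library alone. The number of peaks within 100 kb of the 8 genes, 286 as the mean of both libraries, was 185 with the stronger 50% of peaks, 164 with a flank of 50 kb, 185 with shared peaks, and 272 to 300 with 1 library alone. The share of window peaks with a GATA hexamer, 20.5%, was 13% with the 2 hexamers that end in A alone (13.5% of all peaks) and 18.8% to 22.3% with 1 library alone. Members with a peak inside the gene numbered 6 or 7. List genes with a promoter peak, 51 of 80, ranged from 47 to 56. Leaving out runs of peaks within 1000 bp of each other, chosen after seeing the data, gave 265 window peaks, with 67.5 in place of 76 at Gata4 and 29.5 in place of 42 at Gata5, and left the hexamer share at 20.5% and the count with a peak inside the gene at 6; it was not run for the other counts. With a limit of 500 bp no peak was left out. For single genes, 24 of 56 counts of window peaks under an alternative moved by more than 1 SD of the libraries. The 56 include settings that could not move. A count from 1 of 2 libraries always lies within 1 SD of their mean, and the limit of 500 bp left out no peak. The fraction therefore does not measure how stable the counts were.

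No paired analysis was possible because the series holds 1 group. Depth is unknown, so intervals from counts cannot be given, and how far a missing site lies under the threshold is not known. Values of 1 group of 2 libraries carry a spread but no test, and peaks outside genes are placed by distance alone.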
